A study of Mus musculus with 6 samples.

Results

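Liver endothelium and stroma were followed in E14.5 fetal liver (FL) cells through 40 genes. Of these, 21 were listed for endothelial cells and 19 for stellate cells, pericytes, fibroblasts and the matrix they lay down. The members are a list made by known function. A probe set was used only if its annotation names exactly 1 gene, and each gene was read from its brightest such probe set by mean log2 signal, which gave all 40 members among 18193 genes. Total RNA came from livers of 3 Pogz+/+ and 3 Pogz-/- mouse embryos, both on a congenic C57BL/6 background backcrossed more than 10 generations, and was hybridised to Affymetrix whole-genome mouse arrays. Pogz-/- embryos came from crosses of Pogz+/- mice in which cre driven by the β-actin promoter had removed the 3′ exons of Pogz, which encode the CENPB and DDE domains, from all cells. Endothelial and stromal cells therefore carried the deletion along with the blood cells. Livers were minced in cold buffer and passed through a strainer, and no enzymatic digestion is described. No cells were sorted, so fewer cells of a type and less RNA per cell cannot be told apart. Nor can the part of a member's signal that came from other liver cells, such as blood cells, be told.

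The FL is the main blood-forming organ of the midgestation embryo, and its endothelium and stroma surround the blood cells. Sinusoidal endothelial cells line wide, fenestrated capillaries and take up waste molecules through scavenger receptors and lectins, while their vascular endothelial growth factor (VEGF) and angiopoietin receptors control vessel growth. Stellate cells and pericytes lie outside the endothelium, supply stem cell factor (encoded by Kitl) and Cxcl12, and make collagen and other matrix proteins.

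Signal was read as log2 of the deposited intensity. Ratios of 3′ over 5′ control signal, larger where labelled RNA is shorter, ran with genotype. For actin they were 52.3, 5.50 and 6.63 in Pogz+/+ replicates 1 to 3 and 4.09, 3.72 and 3.86 in Pogz-/-, and for Gapdh 15.3, 7.37 and 9.29 against 5.01, 4.87 and 5.08, so every Pogz+/+ array lay above every Pogz-/- array with or without replicate 1. The part of this difference in the members' values was not tested. Pogz+/+ replicate 1 was the array most unlike the rest. Its correlation with the other arrays was 0.794 to 0.810 against 0.884 to 0.906 among the remaining pairs. Median intensity was 54.3 there, and the remaining Pogz+/+ arrays had 36.0 and 37.5 while Pogz-/- ran from 29.7 to 31.6. Fits were therefore made over 6 arrays and again over 5 arrays, without Pogz+/+ replicate 1. The brightest of the 4 Pogz probe sets was 9.17, 9.03 and 8.95 in Pogz+/+ and 9.16, 9.22 and 9.33 in Pogz-/-. Another was lower on average in Pogz-/- with overlap (6.83, 6.00 and 6.60 against 6.08, 5.35 and 6.25). The remaining ones had all Pogz-/- arrays higher. They were 3.56, 4.98 and 2.84 against 6.04, 5.94 and 5.92, and 4.82, 4.58 and 2.54 against 5.83, 5.39 and 5.15. Whether their probes fall inside the removed exons is not given in the sources used here, so the genotype labels have no check from Pogz itself.

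No endothelial or stromal gene passed the test. Over 6 arrays limma called 0 of 21 endothelial and 0 of 19 stromal genes at an adjusted p under 0.05, against 0.121% of all genes (0.0989% higher and 0.022% lower in Pogz-/-). Over 5 arrays the count was again 0 of 21 and 0 of 19, against 4.48% of all genes (2.41% higher and 2.07% lower). The members' adjusted p ranged from 0.196 to 0.996 over 6 arrays and from 0.146 to 0.996 over 5 arrays. At an unadjusted p under 0.05 from limma there were 5 endothelial genes and 1 stromal gene over 6 arrays, shares of 23.8% and 5.26% where 17.7% of all genes had such a p. Over 5 arrays there were 3 and 1, or 14.3% and 5.26% against 18.3%. limma without trend and robust called none of the 18193 genes in either fit, so it could call no member. It had 4 endothelial and 2 stromal genes at an unadjusted p under 0.05 over 6 arrays and 4 and 0 over 5 arrays, where 13.1% of all genes had such a p in both. The methods' t-test called 1 of all genes over 6 arrays and 2 over 5 arrays, no member among them. Its counts at an unadjusted p under 0.05 were 4 and 1 over 6 arrays and 2 and 0 over 5 arrays, against 13.3% and 14.3% of all genes.

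**Figure D1:**
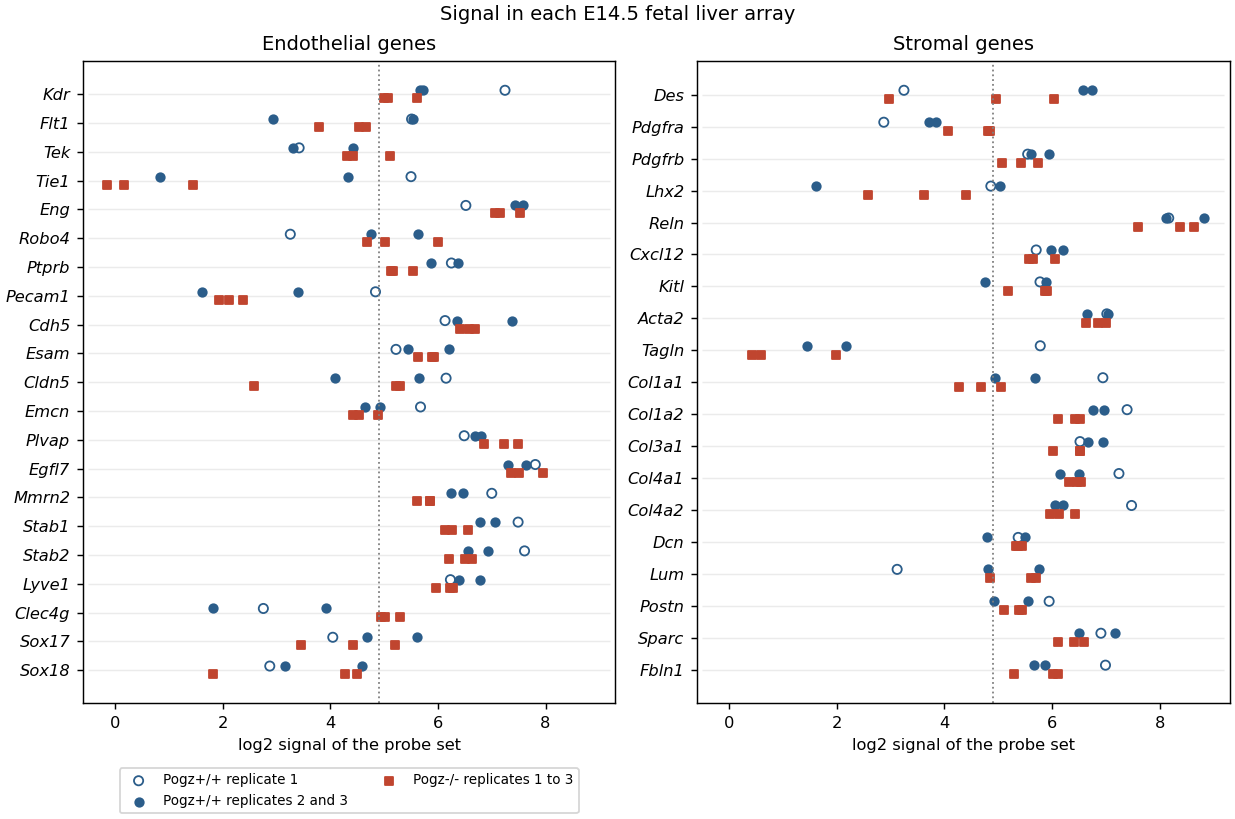
Log2 signal (horizontal axis) of the 21 endothelial genes (left) and 19 stromal genes (right) in each array. Blue circles are Pogz+/+ arrays, with replicate 1 open, red squares are the 3 Pogz-/- arrays, and the dotted line is the median of all probe sets, 4.91. Blue and red do not overlap for Kdr, Ptprb, Mmrn2, Stab1 and Col1a2 (Pogz-/- lower) and for Plvap, Clec4g and Pdgfra (Pogz-/- higher).

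The arrays of the genotypes did not overlap for a few members. All 3 Pogz-/- arrays lay above all 3 Pogz+/+ arrays for 2 of 21 endothelial genes (Plvap and Clec4g, 9.52%) and 1 of 19 stromal genes (Pdgfra, 5.26%), against 10.8% of all genes. They lay below for 4 endothelial genes (Kdr, Ptprb, Mmrn2 and Stab1, 19%) and 1 stromal gene (Col1a2, 5.26%), against 16.3% of all genes. Against Pogz+/+ replicates 2 and 3 alone, 2 endothelial genes and 1 stromal gene lay above where 14.9% of all genes did, and 5 endothelial and 3 stromal genes lay below where 21.7% did. The endothelial shares were near those of all genes, and the stromal shares were lower. Scaling altered the membership. After quantile normalization Tek and Dcn joined the genes above and Kdr left those below. Over all genes 11.6% then lay above and 12.4% below, beside 14.3% and 14.3% of endothelial and 10.5% and 5.26% of stromal genes. After each array was centred on its median Tek and Dcn again lay above, and Mmrn2 was the only member below, while over all genes 26.5% lay above and 5.66% below.

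Among the receptors, Kdr, the main VEGF receptor of endothelial cells, measured 7.25, 5.67 and 5.73 in Pogz+/+ replicates 1 to 3 and 5.62, 5.07 and 4.99 in Pogz-/-. The array that stood apart was the highest, and the gap between the genotypes next to it was narrow, with 5.67 in the lowest Pogz+/+ array and 5.62 in the highest Pogz-/- array. The log2 fold change, Pogz-/- over Pogz+/+, was −0.99 over 6 arrays (limma adjusted p = 0.306) and −0.47 over 5 arrays (limma adjusted p = 0.547). Ptprb encodes the endothelial phosphatase VE-PTP, which restrains TIE2 and VE-cadherin signalling. It was 6.25, 6.37 and 5.88 in Pogz+/+ and 5.17, 5.13 and 5.53 in Pogz-/-, and here the fold change hardly depended on the first array (−0.89 and −0.84 on the log2 scale, limma adjusted p = 0.241 and 0.221 over 6 and 5 arrays). The other probe sets of Ptprb were also lower on average in Pogz-/-, but their arrays overlapped.

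Tie1, an orphan partner of the angiopoietin receptor, had the largest fitted difference of the members over 6 arrays and one of the widest spreads. It was 5.50, 4.34 and 0.83 in Pogz+/+ and −0.15, 1.45 and 0.17 in Pogz-/-. Pogz+/+ replicate 3 lay among the Pogz-/- arrays, and the log2 fold change of −3.07 over 6 arrays (limma adjusted p = 0.241) became −2.10 over 5 arrays (limma adjusted p = 0.392), with a 95% interval from −4.75 to 0.56. At this low signal the size depended on the scale, and with a pseudocount of 16 it was −0.95 over 6 arrays. Tek, which encodes the angiopoietin receptor TIE2 itself, was 3.42, 4.43 and 3.30 in Pogz+/+ and 5.11, 4.42 and 4.31 in Pogz-/-. One Pogz+/+ array exceeded the lowest 2 Pogz-/- arrays, and the log2 fold change was 0.90 over 6 arrays and 0.75 over 5 arrays. The remaining receptors had overlapping arrays in the probe set used. Eng, a co-receptor for BMP9 and BMP10, had log2 fold changes of 0.07 and −0.26 over 6 and 5 arrays. Flt1, a decoy receptor for VEGF, had −0.34 and 0.09. A dimmer Flt1 probe set did not overlap, at 2.24, 4.55 and 2.13 in Pogz+/+ and 4.76, 4.74 and 4.91 in Pogz-/- (1.83 and 1.46 over 6 and 5 arrays). Robo4, a receptor that stabilises vessels, had 0.69 and 0.04.

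Junction and surface genes gave levels in both genotypes that mostly overlapped. Cdh5, the VE-cadherin of endothelial junctions, measured 6.13, 7.37 and 6.35 in Pogz+/+ and 6.41, 6.68 and 6.57 in Pogz-/-. Its Pogz-/- arrays lay within the Pogz+/+ range, with log2 fold changes of −0.06 and −0.30 over 6 and 5 arrays, and the 95% interval over 5 arrays, from −0.95 to 0.34, lay within a 2-fold change either way. A dimmer Cdh5 probe set had all Pogz-/- arrays lower, at 4.93, 4.59 and 5.08 in Pogz+/+ and 3.59, 4.29 and 4.13 in Pogz-/- (−0.87 and −0.84). Pecam1, the adhesion molecule CD31, measured 4.84, 1.62 and 3.40 in Pogz+/+ and 2.37, 2.12 and 1.92 in Pogz-/-. The probe set was dim and its Pogz+/+ arrays differed widely. Its log2 fold change was −1.15 over 6 arrays and −0.37 over 5 arrays, where the interval ran from −2.63 to 1.89.

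Plvap, which forms the diaphragms of fenestrae, was 6.49, 6.79 and 6.69 in Pogz+/+ and 7.22, 7.48 and 6.86 in Pogz-/-. All Pogz-/- arrays were higher, by a log2 fold change of 0.53 over 6 arrays (limma adjusted p = 0.292) and 0.45 over 5 arrays (limma adjusted p = 0.317). With every array centred on its median the adjusted p over 5 arrays was 0.0552, still above the threshold. Mmrn2, an extracellular ligand of endothelial CD93, lay on the other side, at 7.0, 6.47 and 6.24 in Pogz+/+ and 5.60, 5.86 and 5.86 in Pogz-/- (log2 fold change −0.80 and −0.58, limma adjusted p = 0.238 and 0.300 over 6 and 5 arrays). Its 4 probe sets all had lower means in Pogz-/-, and 3 of them had no overlap between genotypes. Egfl7, a secreted factor of endothelium, had log2 fold changes of 0.03 and 0.14 over 6 and 5 arrays, and Esam, an adhesion molecule of tight junctions, had 0.19 and −0.01. The values were −0.94 and −0.51 for Cldn5, a tight junction claudin, and −0.46 and −0.16 for Emcn, a surface sialomucin.

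The sinusoidal receptors and lectins are typical of the scavenging endothelium of liver. Stab1 and Stab2 encode related scavenger receptors that take up modified lipoproteins, and the product of Stab2 also clears hyaluronan. Lyve1 encodes a hyaluronan receptor, and Clec4g encodes the lectin LSECtin. The windows around their annotated starts, 250 bases before to 50 bases from the start, are shown for the 3 genes of this set that RefSeq windows cover, read 5′ to 3′ along the gene's strand (GRCm38.p6, RefSeq). Capitals mark CAGGAA, or TTCCTG where it lies on the opposite strand. This string is the GGAA core bound by ETS factors with CA before it. ETS factors such as ERG and FLI1 act in endothelial cells. Other GGAA cores in the windows were not counted and are not marked. The Stab1 window is chr14:31168592-31168891, minus strand, that of Stab2 is chr10:87007893-87008192, minus strand, and that of Clec4g is chr8:3720602-3720901, minus strand.
Stab1: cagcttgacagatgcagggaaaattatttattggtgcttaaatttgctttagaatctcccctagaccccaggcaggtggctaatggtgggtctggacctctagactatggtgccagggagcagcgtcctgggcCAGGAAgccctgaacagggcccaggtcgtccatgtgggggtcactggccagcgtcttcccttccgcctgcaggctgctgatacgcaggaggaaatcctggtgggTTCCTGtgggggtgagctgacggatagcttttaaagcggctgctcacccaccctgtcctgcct
Stab2: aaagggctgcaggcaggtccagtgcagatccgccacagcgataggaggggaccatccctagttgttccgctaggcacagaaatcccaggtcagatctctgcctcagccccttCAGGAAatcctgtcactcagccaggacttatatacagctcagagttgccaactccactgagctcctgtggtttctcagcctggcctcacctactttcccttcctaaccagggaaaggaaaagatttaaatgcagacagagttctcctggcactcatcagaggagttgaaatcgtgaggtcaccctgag
Clec4g: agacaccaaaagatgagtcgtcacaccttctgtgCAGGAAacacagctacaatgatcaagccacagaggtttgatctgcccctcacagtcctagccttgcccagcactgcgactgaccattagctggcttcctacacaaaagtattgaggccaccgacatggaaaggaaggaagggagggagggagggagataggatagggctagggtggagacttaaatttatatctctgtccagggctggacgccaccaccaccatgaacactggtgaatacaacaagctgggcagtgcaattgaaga
In these windows CAGGAA began 117 bases before the start of Stab1. TTCCTG, which is CAGGAA on the opposite strand, began 13 bases before that start as printed. CAGGAA began 138 bases before the start of Stab2 and 216 bases before that of Clec4g. Windows were found for 12 endothelial and 14 stromal genes, 26 of the 40 members. CAGGAA, searched on both strands, was in 10 of 14 endothelial windows (71.4%) and in 3 of 17 stromal windows (17.6%). Over all genes it was in 10037 of 32851 windows (30.6%). The endothelial genes with it were Clec4g, Egfl7, Emcn, Eng, Robo4, Stab1, Stab2, Tek and Tie1. A match describes letters and is not a bound site, and genes that held it lay on both sides of 0 in the comparison of genotypes.

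Stab1 had the lowest adjusted p of any member over 6 arrays. It measured 7.49, 7.06 and 6.79 in Pogz+/+ (7.11 ± 0.35, SD, n = 3) and 6.55, 6.14 and 6.27 in Pogz-/- (6.32 ± 0.21, SD, n = 3). Every Pogz-/- array was lower than every Pogz+/+ array. The log2 fold change was −0.79 over 6 arrays (SE 0.27, limma adjusted p = 0.196) and −0.60 over 5 arrays (SE 0.24, limma adjusted p = 0.209). Stab2 measured 7.61, 6.92 and 6.56 in Pogz+/+ and 6.20, 6.64 and 6.50 in Pogz-/-. Only Pogz+/+ replicate 3 lay below the highest Pogz-/- array, and the log2 fold change was −0.59 over 6 arrays and −0.30 over 5 arrays (limma adjusted p = 0.334 and 0.565). Lyve1 measured 6.23, 6.78 and 6.39 in Pogz+/+ and 6.23, 5.97 and 6.29 in Pogz-/-, and its log2 fold change was −0.31 and −0.42 over 6 and 5 arrays.

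Clec4g had the opposite sign to the 3 other sinusoidal genes, with no call for any of them. It was 2.75, 3.93 and 1.82 in Pogz+/+ and 4.94, 5.29 and 5.01 in Pogz-/-, so that all 3 Pogz-/- arrays were higher and closer to each other than the Pogz+/+ arrays. The log2 fold change was 2.25 over 6 arrays (SE 0.79, limma adjusted p = 0.203) and 2.21 over 5 arrays (SE 0.76, limma adjusted p = 0.148), with a 95% interval from 0.53 to 3.88 that leaves out 0 before adjustment over all genes. The probe set is dim, and with a pseudocount of 16 the log2 fold change was 1.06 over 6 arrays and 1.02 over 5 arrays. A second, dimmer probe set of Clec4g measured 1.67, 2.21 and 4.46 in Pogz+/+ and 4.57, 1.76 and 4.68 in Pogz-/-, and there the genotypes overlapped. The lowest adjusted p of any member under any alternative, 0.0545, was that of Clec4g over 5 arrays after centring each array on its median.

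Both transcription factor genes of the endothelial list, Sox17 and Sox18, were dim and their arrays overlapped in the probe set used. The log2 fold changes were −0.42 and −0.79 for Sox17, a factor of arterial endothelium, and −0.02 and −0.35 for Sox18, which acts in lymphatic development, over 6 and 5 arrays. A second, dimmer probe set of Sox17 had all Pogz-/- arrays lower, at 5.51, 4.04 and 4.84 in Pogz+/+ and 0.80, 3.92 and 3.42 in Pogz-/- (−2.08 and −1.73).

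**Figure D2:**
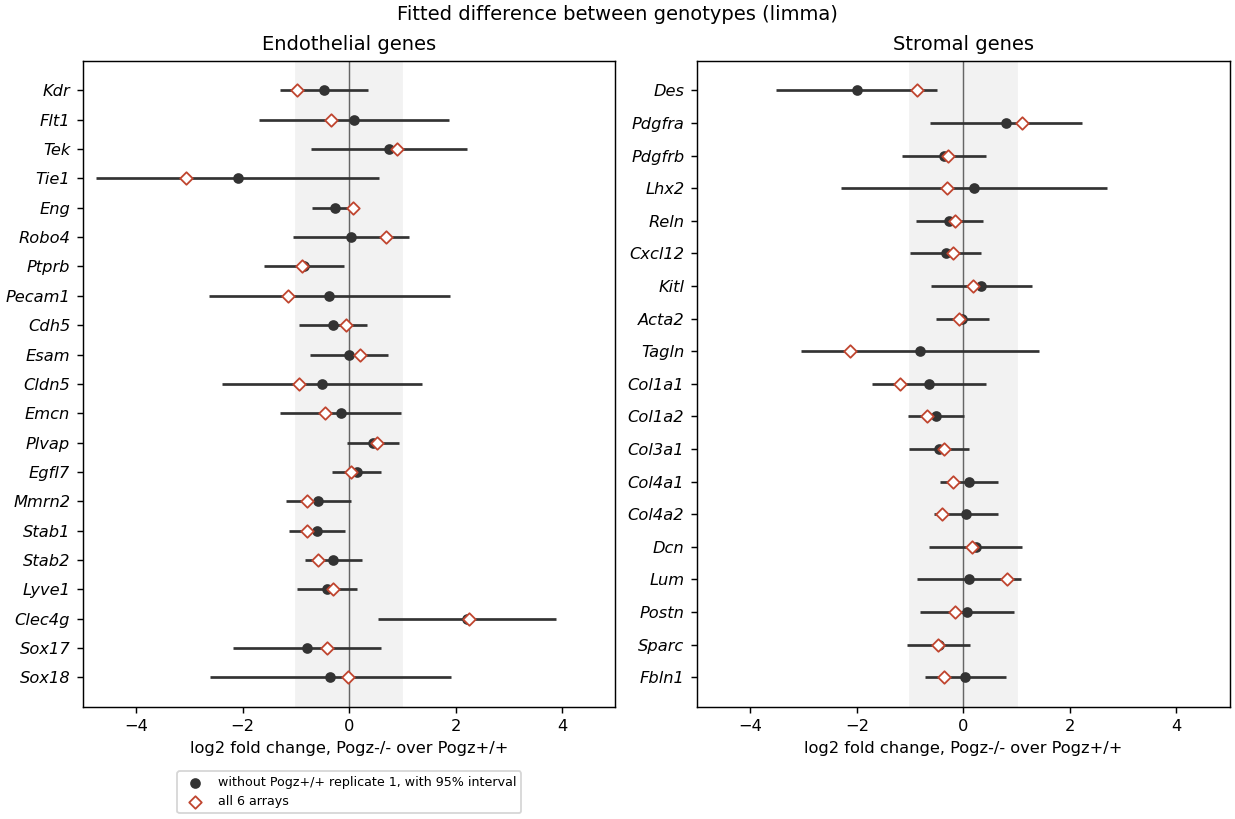
Log2 fold change, Pogz-/- over Pogz+/+ (horizontal axis), of each endothelial (left) and stromal (right) gene. Black points are the limma fit without Pogz+/+ replicate 1 with its unadjusted 95% interval, open diamonds are the fit to all 6 arrays, and the grey band spans a 2-fold change either way. The intervals of 3 endothelial genes (Ptprb, Stab1 and Clec4g) and 1 stromal gene (Des) leave out 0, and none of the 40 genes was called.

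Of the genes that identify stellate cells and their relatives, Des showed the clearest dependence on a single array. The intermediate filament desmin, its product, is a stellate cell and muscle marker. Its signal was 3.25, 6.74 and 6.58 in Pogz+/+ and 4.95, 2.97 and 6.04 in Pogz-/-. Pogz+/+ replicate 1 was near the lowest Pogz-/- array while replicates 2 and 3 were above all Pogz-/- arrays. The log2 fold change was −0.87 over 6 arrays (limma adjusted p = 0.674) and −2.01 over 5 arrays (SE 0.69, limma adjusted p = 0.146), where only 2 Pogz+/+ arrays remained. A dimmer probe set of Des gave 0.16 and −0.33.

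Pdgfra, the platelet-derived growth factor (PDGF) receptor of fibroblasts, was 2.87, 3.84 and 3.71 in Pogz+/+ and 4.85, 4.80 and 4.06 in Pogz-/- (log2 fold change 1.10 and 0.80, limma adjusted p = 0.440 and 0.559 over 6 and 5 arrays). All Pogz-/- arrays were higher for this dim probe set, and the other 2 probe sets of Pdgfra overlapped between genotypes. Pdgfrb, the receptor of pericytes and stellate cells, was 5.55, 5.61 and 5.94 in Pogz+/+ and 5.43, 5.73 and 5.07 in Pogz-/-. Lhx2, a transcription factor that keeps stellate cells quiescent, was 4.86, 1.62 and 5.03 in Pogz+/+ and 4.40, 2.57 and 3.62 in Pogz-/-. Both genes overlapped between genotypes, with log2 fold changes over 6 and 5 arrays of −0.29 and −0.37 for Pdgfrb and −0.31 and 0.20 for Lhx2, and the interval of Lhx2 over 5 arrays, from −2.30 to 2.71, left its direction undetermined. Reln, a secreted glycoprotein used as a stellate cell marker, had log2 fold changes of −0.16 and −0.26 over 6 and 5 arrays, and its interval over 5 arrays, from −0.89 to 0.37, lay within a 2-fold change.

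The niche factors, on which blood stem cells depend, did not separate the genotypes. Cxcl12, the chemokine that retains blood stem cells, measured 5.70, 6.19 and 5.98 in Pogz+/+ and 5.64, 5.58 and 6.06 in Pogz-/- (log2 fold change −0.20 and −0.33 over 6 and 5 arrays). The interval over 5 arrays, from −1.0 to 0.34, lay within a 2-fold change. Kitl, which encodes the ligand of the KIT receptor, measured 5.78, 4.75 and 5.89 in Pogz+/+ and 5.18, 5.91 and 5.87 in Pogz-/- (log2 fold change 0.18 and 0.34 over 6 and 5 arrays). Its 4 probe sets gave values of both signs, from −1.73 to 0.72 over 6 arrays. Kit itself, the receptor on blood progenitors, was higher in Pogz-/- over 5 arrays (log2 fold change 0.91, limma adjusted p = 0.00421), while over 6 arrays it was not called (1.28, limma adjusted p = 0.104).

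Contractile genes differed in what they could resolve. Acta2, the smooth muscle actin of activated stellate cells and vessel walls, was 7.02, 6.65 and 7.05 in Pogz+/+ and 6.85, 6.64 and 7.01 in Pogz-/-. The arrays of the genotypes covered nearly the same range, with log2 fold changes of −0.07 and −0.02 over 6 and 5 arrays and an interval over 5 arrays from −0.51 to 0.48, within a 2-fold change. Tagln, which encodes an actin-binding protein of smooth muscle, was 5.78, 2.17 and 1.45 in Pogz+/+ and 1.98, 0.43 and 0.58 in Pogz-/-. Most of its log2 fold change of −2.14 over 6 arrays came with Pogz+/+ replicate 1, since it was −0.81 over 5 arrays (limma adjusted p = 0.370 and 0.727).

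Fibrillar collagens, the main fibres of connective tissue, had lower means in Pogz-/- in the probe set used for each of the 3 genes in both fits, without a call. The sign was not kept by every alternative. Col3a1 was at 0.10 over 6 arrays with each array centred on its median, and with the mean of all probe sets Col1a1 and Col1a2 were at 0.15 and 0.29 over 5 arrays. Col1a1 measured 6.94, 5.69 and 4.94 in Pogz+/+ and 4.28, 5.06 and 4.68 in Pogz-/-, with overlap through 1 array of each genotype. Col1a2 measured 7.39, 6.75 and 6.97 in Pogz+/+ (7.04 ± 0.33, SD, n = 3) and 6.51, 6.11 and 6.43 in Pogz-/- (6.35 ± 0.21, SD, n = 3). It was the only stromal gene with all Pogz-/- arrays lower, by a log2 fold change of −0.69 over 6 arrays (SE 0.27, limma adjusted p = 0.232) and −0.51 over 5 arrays (SE 0.24, limma adjusted p = 0.281). Col3a1 measured 6.52, 6.95 and 6.66 in Pogz+/+ and 6.01, 6.52 and 6.52 in Pogz-/-, where Pogz+/+ replicate 1 was level with the 2 highest Pogz-/- arrays. The log2 fold changes over 6 and 5 arrays were −1.19 and −0.64 for Col1a1 and −0.36 and −0.46 for Col3a1. Under that centring the median over all genes was itself 0.29 over 6 arrays, and Col1a1 and Col1a2 were at −0.73 and −0.23.

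Col4a1 and Col4a2, the chains of basement membrane collagen, are transcribed in opposite directions from neighbouring starts, and the stretch their windows share is shown once. Their RefSeq windows share the 78 bases at chr8:11312777-11312854 (GRCm38.p6), printed on the plus strand, with the 22 bases from the Col4a2 start at 11312805 to the Col4a1 start at 11312826 in capitals. Col4a2 is read on the plus strand and Col4a1 on the minus strand, so these 22 bases lie within both annotated transcripts.
Col4a1 and Col4a2: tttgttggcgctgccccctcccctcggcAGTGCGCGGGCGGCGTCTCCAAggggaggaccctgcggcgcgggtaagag
Col4a1 measured 7.24, 6.15 and 6.50 in Pogz+/+ and 6.46, 6.31 and 6.54 in Pogz-/-. Col4a2 measured 7.48, 6.05 and 6.20 in Pogz+/+ and 6.13, 6.43 and 5.97 in Pogz-/-. Both were highest in Pogz+/+ replicate 1. The log2 fold changes were −0.20 for Col4a1 and −0.40 for Col4a2 over 6 arrays, and without that array 0.11 for Col4a1 and 0.05 for Col4a2, with intervals within a 2-fold change.

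The other matrix genes overlapped between genotypes in the deposited values of the probe set used. Dcn, a collagen-binding proteoglycan, measured 5.37, 5.50 and 4.79 in Pogz+/+ and 5.33, 5.36 and 5.44 in Pogz-/- (log2 fold change 0.16 and 0.23 over 6 and 5 arrays). A dimmer Dcn probe set had all Pogz-/- arrays higher, at 2.26, 1.35 and 2.58 in Pogz+/+ and 4.45, 3.35 and 3.79 in Pogz-/- (1.80 and 1.90). Lum, a related proteoglycan, had 0.83 over 6 arrays and 0.10 over 5 arrays, as its lowest value, 3.12, was in Pogz+/+ replicate 1. Over 6 and 5 arrays the log2 fold changes were −0.16 and 0.07 for Postn, a matricellular protein, −0.48 and −0.46 for Sparc, a collagen-binding protein, and −0.37 and 0.04 for Fbln1, a component of elastic fibres and basement membranes.

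As groups, both lists leaned to lower values in Pogz-/- over 6 arrays, along with the whole array. Over 5 arrays the stromal list hardly did. The median log2 fold change was −0.34 for the endothelial and −0.29 for the stromal genes over 6 arrays, beside −0.17 over all genes. Over 5 arrays it was −0.30 for the endothelial genes and −0.02 for the stromal genes, beside −0.10 over all genes. Values below 0 were found for 14 of 21 endothelial and 15 of 19 stromal genes over 6 arrays, where 60.4% of all genes were below 0. Over 5 arrays the counts were 15 and 10, where 57.6% of all genes were below 0. Quantile normalization brought the endothelial median to −0.02 over 6 arrays and −0.25 over 5 arrays, beside −0.02 over all genes in both. With each array centred on its median the endothelial and stromal medians were 0.12 and 0.17 over 6 arrays, beside 0.29 over all genes, and −0.03 and 0.26 over 5 arrays, beside 0.18 over all genes. The endothelial direction therefore depended on the scaling over 6 arrays and the stromal direction in both fits.

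**Figure D3:**
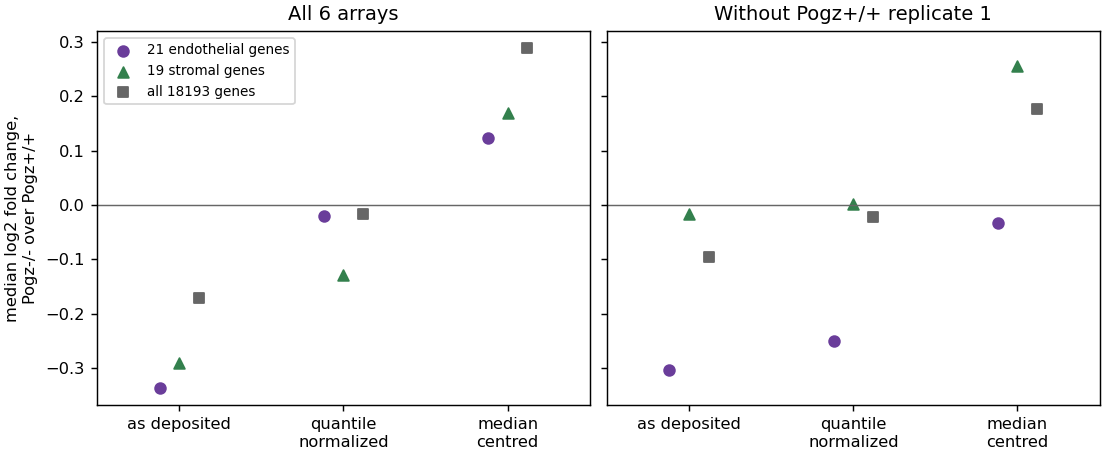
Median log2 fold change, Pogz-/- over Pogz+/+ (vertical axis), of the 21 endothelial genes, the 19 stromal genes and all 18193 genes under 3 scalings (horizontal axis), over 6 arrays (left) and without Pogz+/+ replicate 1 (right). Endothelial medians range from −0.34 to 0.12 over 6 arrays and move with the median of all genes.

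Within a genotype the median correlation between pairs of members was small. After the genotype means were taken off, it was 0.0612 over 210 endothelial pairs and −0.0482 over 171 stromal pairs, each over the 6 arrays, which share their scaling. A median over so few arrays cannot show whether some members moved together, and that of all genes was not computed. The array that stood apart was the highest of the 6 for 8 endothelial and 7 stromal genes and the lowest for 5 and 2. Spread followed signal. The 13 members whose mean signal was below the median of all probe sets (10 endothelial and 3 stromal) had a median SD within genotype of 0.813 over 5 arrays, and the 27 brighter members had 0.281. Consequently the 95% interval over 5 arrays lay within a 2-fold change either way for 7 endothelial genes (Eng, Cdh5, Esam, Plvap, Egfl7, Stab2 and Lyve1) and 7 stromal genes (Reln, Cxcl12, Acta2, Col4a1, Col4a2, Postn and Fbln1). For the other 26 a 2-fold difference lay inside the interval, the widest of which spanned 5.31 log2 units among endothelial and 5.0 among stromal genes.

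**Figure D4:**
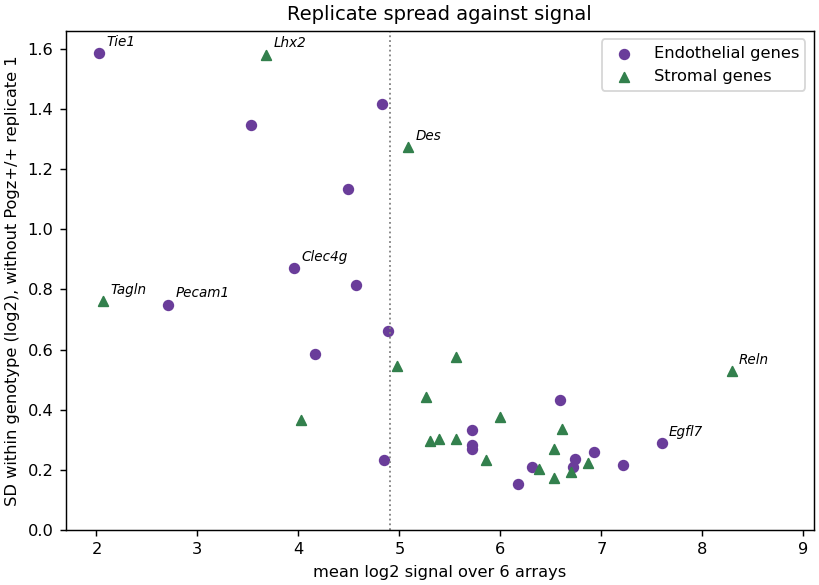
SD within genotype on the log2 scale, without Pogz+/+ replicate 1 (vertical axis), against the mean log2 signal over 6 arrays (horizontal axis), for endothelial genes (circles) and stromal genes (triangles). The dotted line is the median of all probe sets, and the dim genes to its left have a median SD of 0.813 against 0.281 to its right.

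Several probe sets named 1 gene alone for 9 endothelial and 14 stromal members. All probe sets of a gene had fold changes of the same sign over 6 arrays in 6 of the 9 and 6 of the 14, and over 5 arrays in 7 and 5. With every probe set tested separately, none of the 37 endothelial and 41 stromal probe sets was called, against 0.0377% of all probe sets over 6 arrays and 2.67% over 5 arrays, with lowest adjusted p of 0.182 and 0.181 over 5 arrays.

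Wider lists of endothelial and stromal genes gave the same count. Like the members, their genes need not be particular to these compartments. In the wider endothelial list Tal1 and Lmo2 had mean log2 signals of 12.7 and 11.9, above every endothelial member (highest Egfl7, 7.60). Gata2 is in that list and is also among the progenitor markers. Of 48 other endothelial genes (ligands of the receptors, transcription factors, and surface and signalling genes) and 54 other stromal genes (ligands, matrix and matrix enzymes, and pericyte identity), limma called 0 in either fit, against the 0.121% and 4.48% of all genes given for the members. At an unadjusted p under 0.05 there were 7 and 7 over 6 arrays (14.6% and 13% against 17.7% of all genes) and 9 and 7 over 5 arrays (18.8% and 13% against 18.3%). Their median log2 fold changes were −0.04 and −0.40 over 6 arrays and −0.13 and −0.37 over 5 arrays. Col5a1, a minor fibrillar collagen chosen here after its values were seen, came nearest to the threshold, and it was higher in Pogz-/- by 0.49 over 6 arrays (limma adjusted p = 0.360) and 0.74 over 5 arrays (limma adjusted p = 0.0727), opposite in sign to Col1a1, Col1a2 and Col3a1. Bmp10, a ligand of the endothelial receptor complex that holds endoglin, was likewise chosen after its values were seen. It measured 3.66, 5.11 and 4.65 in Pogz+/+ and 2.38, 1.40 and 2.08 in Pogz-/- (log2 fold change −2.52 and −2.93, limma adjusted p = 0.198 and 0.121 over 6 and 5 arrays). Its probe set was dim, with a mean of 3.21 where the median of all probe sets was 4.91. At low signal the size of the fold change depended on the scale for Tie1 and Clec4g.

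Markers of the other liver cells were read in the same arrays, and 37 of the 40 listed had a probe set. Every deposited value is above 0, so a signal above 0 does not show that a cell type was present. The mesothelial markers Msln, Upk3b, Wt1, Lrrn4, Krt19 and Pdpn and the progenitor marker Mecom lay below the median of all probe sets. Summed linear signal of 5 of 7 erythroid markers lay between 52558 and 78739 in Pogz+/+ arrays and between 35544 and 38767 in Pogz-/- arrays, and 4 of them fell over 5 arrays at an adjusted p under 0.05 in limma. The 7 hepatoblast markers summed to between 26937 and 49951 in Pogz+/+ and between 16538 and 25888 in Pogz-/-, with 1 fall over 5 arrays. That sum was mostly Afp, the gene that fell (−0.96 and −0.66 over 6 and 5 arrays), while Alb had 0.75 and 0.41. The 6 progenitor markers summed to between 2509 and 3124 in Pogz+/+ and between 3814 and 4069 in Pogz-/-. Over 5 arrays 2 of them, Kit and Myb, rose at an adjusted p under 0.05 in limma. Myb was the brightest of the 6, and the median log2 fold change of the list was −0.09 and 0.12 over 6 and 5 arrays. Gata2 had −0.32 and −0.43 and Meis1 −0.55 and −0.47, neither called. Sums for 7 macrophage markers were 4344 to 5356 and 3081 to 4147, for 5 of 6 megakaryocyte markers 4205 to 4690 and 3539 to 4361, and for 7 mesothelial markers 106 to 389 and 92.2 to 113, with 0 calls in each of these 3 lists. The macrophage sum was mostly Csf1r (−0.43 and −0.26 over 6 and 5 arrays). Other macrophage markers lay on both sides, with C1qb at −0.75 and −0.65 and Marco at 0.65 and 0.51. The median over the macrophage markers was −0.05 and −0.08. Over 6 arrays none of these markers was called. The part of the changing blood and hepatoblast signal in the members' values was not tested.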

How the data were processed

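Total RNA (100 ng) of 6 E14.5 FL preparations, 3 for each genotype, was labelled by a 3′ IVT method and hybridised to 1 array each. The deposited intensity values, linear and above 0, were made by the authors with Affymetrix Expression Console. Neither its version nor its algorithm is given in the sources used here. Each array has the same 2% trimmed mean, 150, and medians differ. Log2 was taken with no pseudocount. Of 45037 probe sets without the 64 controls, 34945 name 1 gene, 932 several and 9160 none here. limma 3.58.1 under R 4.3.3 was run on log2 values (lmFit, eBayes with trend and robust, genotype only, two-sided, Benjamini-Hochberg over 18193 genes), over 6 arrays and over 5. A call means an adjusted p under 0.05, with no fold cutoff. An exact permutation test of 3 against 3 cannot go below 0.1 and was not used. The members, the wider and marker lists (102 of 106 and 37 of 40 genes found) and the tests were chosen with earlier results of these data known.

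All 40 members are accounted for by role. Values in every array are given for members whose genotypes do not overlap and for the defining genes of each cell type, while Tie1, Tek, Tagln, Col4a1, Col4a2 and second probe sets were added after their values were seen. Alternatives were quantile normalization, median centring, a pseudocount of 16, no dim genes, plain eBayes, the replicate number as a block, the mean of all probe sets, every probe set separately, a 1.5-fold cutoff, an adjusted p under 0.1, the methods' t-test, a Y-linked covariate and leaving out each array. Promoter windows are from RefSeq, GRCm38.p6. The number of arrays limits the precision.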

Additional observations from a re-analysis of the deposited data

How the results depend on the processing

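The count of called genes was 0 of 21 endothelial and 0 of 19 stromal genes under every alternative run in both fits. Some of these could hardly call a gene: over 6 arrays 5 of 18 alternatives (plain eBayes, the Y-linked covariate and leaving out Pogz+/+ replicate 3 or Pogz-/- replicate 1 or 2) called 0 of all genes and 2 (the methods' t-test and leaving out Pogz-/- replicate 3) called 1, and over 5 arrays plain eBayes called 0 and the methods' t-test 2, so they say nothing about stability. The other alternatives called 4 to 815 of all genes over 6 arrays and 101 to 1944 over 5 arrays, or 17 and 1202 probe sets. The members' medians moved. Over 6 arrays quantile normalization gave −0.0197 for the endothelial genes, centring each array on its median gave 0.12 for the endothelial and 0.17 for the stromal genes, and leaving out Pogz+/+ replicate 1 gave −0.0164 for the stromal genes. Over 5 arrays median centring gave −0.0325 and 0.26. Leaving out each array in turn gave −0.39 to −0.21 (endothelial) and −0.35 to −0.02 (stromal) over 6 arrays, and −0.40 to −0.23 and −0.24 to −0.08 over 5 arrays. Of single genes' values, 1048 were within the main spread and 86 moved beyond it, with no call gained. The direction was 1 in all settings for 19 of 40 members over 6 arrays and 17 over 5.

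Samples of the same replicate number did not deviate together (correlations 0.00412, −0.00884 and −0.0133). No pairing by number was seen in these deviations from means of 3 arrays, and a shared litter or batch was not tested. With the replicate number as a block the counts were again 0, and the medians were −0.34 and −0.29 over 6 arrays and −0.40 and −0.11 over 5 arrays for the endothelial and stromal genes.

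Signal limits these results: 13 of 40 members lie below the median signal of all probe sets, and over 5 arrays only 2 Pogz+/+ arrays set their level.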
